A study of Danio rerio with 12 samples.

Results

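Isolated open regions are stretches of accessible DNA with no other accessible region nearby. They were taken from ATAC-seq of whole wild-type AB/Tuebingen zebrafish embryos at 6 hours post fertilization, in which a transposase cuts and tags open chromatin. Newly fertilized eggs received 3.12 µM TDCIPP (a chlorinated organophosphate used as a flame retardant), with DMSO controls of its own, or 100 µM decitabine (DAC, a nucleoside drug that, once built into DNA, holds DNA methyltransferases fast), with separate DMSO controls, and the DMSO groups received 0.1% of the solvent. Each of the 4 groups had 3 libraries, and the labels do not say whether these came from separate clutches, so p-values measure only the spread between libraries, which may be technical. A table of regions exists for each compound, and a region was called isolated, within its own table, when it lay on chromosomes 1 to 25 without 4, was at least 500 and under 4000 bp wide, and had no other region of any width within 100000 bp, edge to edge. This gave 706 of 35040 regions in the TDCIPP table and 414 of 45019 in the DAC table. They are set beside the other regions of the same chromosomes and width range, 26593 with TDCIPP and 33851 with DAC, which are called the other regions here. The label holds only within a table. Of the 706 isolated regions of the TDCIPP table, 565 (80.0%) had a further, non-overlapping region of the DAC table within 100000 bp, and among the 414 of the DAC table such a region of the TDCIPP table was near 202 (48.8%). Regions isolated in both tables numbered 86.

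Open regions of an embryo are mostly promoters and distal elements such as enhancers and insulators, and they tend to gather around active genes. Around the onset of gastrulation the zygotic genome has been activated, and maternally supplied factors such as Pou5f3, Sox19b and Nanog have opened many of these sites. Vertebrate genomes also hold long stretches with few genes, in which lone enhancers can act on a distant developmental gene. In zebrafish embryos the histone variant H2A.Z, named in the title of the study, occupies DNA of low methylation such as promoters. The comparison asks whether an open region without neighbours answered either compound as other regions of like read level did. Coordinates are on GRCz11. The genes and sequences around the regions were not analysed here.

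The deposited tables hold group means and no value of a single library, so no SD or standard error can be given. Level stands for mean normalized reads per library on a log2 scale, and reads are given per library as a mean over the 3 libraries of a group. Because whole embryos were used, fewer cells with a region open and less opening per cell cannot be told apart. Summed over regions, TDCIPP libraries had 7.75 M (10 to the power of 6) normalized reads each on average and their DMSO controls 7.91 M, while DAC libraries had 2.07 M and their DMSO controls 1.88 M. As the scaling of libraries is not known, these sums are not sequencing depths. Intervals given with shares are 95% Clopper-Pearson intervals and cover counting error only. No test of isolated regions as a set was made, so values of isolated and other regions stand side by side as a description.

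Isolated regions were weaker than the other regions, less so in width. Their median level in the TDCIPP table was 5.98, against 6.41 in the other regions, and 239 of 706 (33.9%) exceeded the median of the other regions. Median width was 1061 bp, against 1175 bp, and median reads per kb were 58.7, against 72.2. In the DAC table the median level was 3.96, against 4.18, at a median width of 1107 bp, against 1131 bp. Regions with a neighbour between 50000 and 100000 bp lay close to isolated ones. Their TDCIPP-table medians were a level of 6.06, 1091 bp and 60.5 reads per kb, and their DAC-table medians a level of 3.97 and 1127 bp. Isolated regions made up 2.01% of all regions of the TDCIPP table and held 0.805% of its reads, and with DAC 0.920% of regions and 0.426% of reads. At equal level the density was alike, since the other regions, weighted to the levels of the isolated ones, had 57.4 reads per kb in the TDCIPP table.

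The distance to the nearest region had a median of 133624 bp in the TDCIPP table and 121406 bp in the DAC table, against 9861 and 8665 bp in the other regions. Chromosome 14 had the most isolated regions for its number of regions in the TDCIPP table, 42 of 1007 (4.17%), followed by chromosome 18 with 34 of 847 (4.01%). Chromosome 22 had the fewest, with 13 of 915 (1.42%). With DAC chromosome 18 came first with 28 of 1153 (2.43%) and chromosome 3 last with 10 of 1902 (0.526%). Isolated regions within 1000000 bp of a chromosome end, taken as the start of the sequence or the end of its last region, numbered 3 with TDCIPP and 0 with DAC. The share of other regions there was not computed, so whether these counts are low is not known. Along the chromosome, 400 of 706 with TDCIPP and 271 of 414 with DAC were not next to another isolated region. The longest strings held 5 isolated regions in a row, on chromosome 11 from 9703541 to 10341505, on chromosome 17 from 2584020 to 3190315 and on chromosome 7 from 2739662 to 3794658 in the TDCIPP table, and on chromosome 18 from 12200780 to 12822729 in the DAC table. Within these strings log2 folds went both ways, except on chromosome 17, where all 5 lay between -0.21 and -0.01 in the authors' deposited table with no unadjusted p under 0.374.

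After TDCIPP, 5 isolated regions changed, 4 of them with higher and 1 with lower accessibility than in DMSO. These 5 of 706 (0.708%, interval 0.230 to 1.64) had an adjusted p under 0.05 in the authors' deposited DiffBind table, where 1.28% of all 35040 regions did. The 4 rises (0.567%) stand beside 0.362% of all regions and the fall (0.142%) beside 0.916%. The other regions, weighted to the levels of the isolated ones in 10 classes, had 0.265% rises and 0.483% falls. Among the other regions as they stand, 90 of 26593 rose and 244 fell. With 5 calls the split between rises and falls rests on few regions.

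The fall lay on chromosome 17 at 22241518 to 22243125, with 119 reads in TDCIPP libraries and 186 in DMSO libraries. The authors' deposited table gives it a log2 fold of -0.65 (adjusted p = 0.00439), and its nearest neighbour lay 136071 bp away. Of the rises, chromosome 2 at 49268467 to 49269739 had the smallest p, with 205 reads after TDCIPP and 128 in DMSO (log2 fold 0.68, adjusted p = 0.00497 in the authors' deposited table). The widest of the 5 was a region of 2599 bp on chromosome 7 at 47538193 to 47540791, with 355 reads after TDCIPP and 254 in DMSO. Its log2 fold was 0.49, the smallest of the 4 rises (adjusted p = 0.00573 in the authors' deposited table). The largest log2 fold among the calls, 0.84, belonged to chromosome 23 at 37394703 to 37396044, with 78.2 reads after TDCIPP and 43.7 in DMSO (adjusted p = 0.0287 in the authors' deposited table). On chromosome 3 at 9159356 to 9160288, TDCIPP libraries had 127 reads and DMSO libraries 83.3 (log2 fold 0.61, adjusted p = 0.0309 in the authors' deposited table). Whether the values of single libraries overlapped between groups cannot be read from group means. All 5 had another DAC-table region within 100000 bp, from 3158 bp away on chromosome 23 to 71898 bp on chromosome 2. None of the calls was thus isolated in the regions of both tables together. Such a further region was near 565 of all 706 isolated regions (80.0%). With DAC, 4 of the 5 had a counterpart, each with a positive fold (log2 0.13 to 0.34, unadjusted p of 0.436 or more in the authors' deposited table). Of all 706 isolated regions, 479 (67.8%) had a counterpart, and the DAC fold was above 0 at 71.6% of these.

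**Figure D1:**
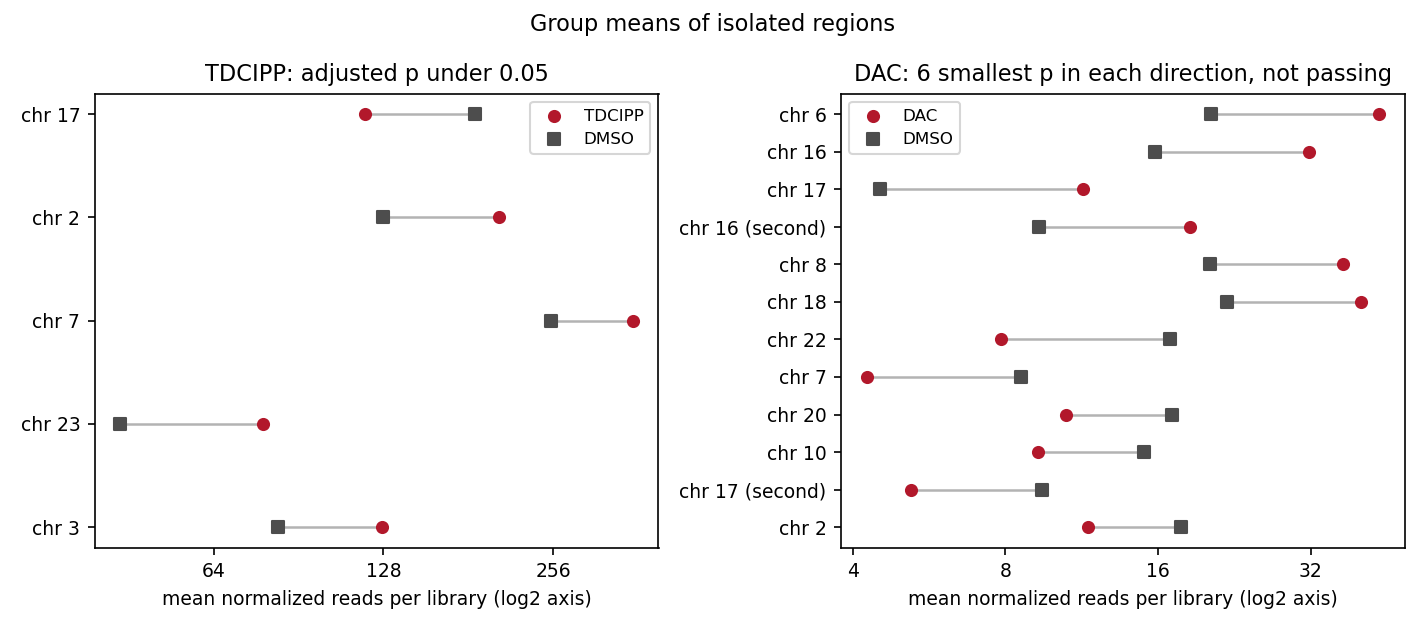
Mean normalized reads per library (x axis, log2 scale) after treatment (circles) and in DMSO (squares) at the 5 isolated regions called after TDCIPP (left) and at the 6 positive and 6 negative folds of smallest unadjusted p after DAC, which do not pass (right), named by chromosome and sorted from small p at the top, with positive DAC folds above negative ones. After TDCIPP 4 regions lie right of their DMSO value, and the DAC values lie at 43.7 reads or below.

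Read level limited which isolated regions could be called. In the TDCIPP table no region below a level of 5.71 has an adjusted p under 1, and 275 of the 706 isolated regions lay below it. Of these 275, 20 (7.27%) had an unadjusted p under 0.05, 14 of them (5.09% of the 275) with a higher value after TDCIPP, against 6.24% and 4.65% of the 6876 other regions below it. The largest log2 fold of any isolated region belonged to this group. It lay on chromosome 11 at 24188118 to 24189219, with 55.3 reads after TDCIPP and 27.5 in DMSO (log2 fold 1.01, unadjusted p = 0.000397, adjusted p = 1 in the authors' deposited table). A Benjamini-Hochberg adjustment recomputed over the deposited p-values of all 35040 regions, with no regard to level, gave it 0.0389, and 6 isolated regions then passed in place of 5. How many of all 35040 regions passed the recomputed adjustment is not given here, so this count has no share to stand beside. Of the 431 isolated regions at or above the limit 5 were called (1.16%), and of the other regions at or above it 334 of 19717 (1.69%).

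Across all 706 isolated regions, log2 folds after TDCIPP lay slightly higher than in the other regions. Their median was 0.07 (quartiles -0.09 and 0.23) in the authors' deposited table, against 0 in the other regions and 0.02 in the other regions weighted to the same levels. A fold above 0 was found in 416 of 706 (58.9%, interval 55.2 to 62.6), against 49.8% of the other regions and 52.9% at the same levels. Folds of at least 0.5 on the log2 scale occurred in 46 (6.52%), against 4.65% at the same levels, and folds of at most -0.5 in 16 (2.27%), against 2.27%. An unadjusted p under 0.05, which is not a call, was found at 59 isolated regions (8.36%), beside 9.93% of all regions. Of these 59, 41 (5.81% of the 706) were higher and 18 (2.55%) lower, in a table where 4.77% of all regions were higher and 5.16% lower. The other regions at the same levels had 4.79% higher and 3.64% lower. Regions with a neighbour between 50000 and 100000 bp, the nearest to isolated ones in distance, had values close to these, with folds above 0 in 58.7% of 1928 (59.0% with levels weighted) and a median of 0.05 (log2, from the authors' deposited table). By chromosome, the median fold of isolated regions exceeded that of the other regions on 18 of 24 chromosomes. It was highest on chromosomes 11 and 18, at 0.19 each in the authors' deposited table, with 35 and 34 isolated regions, and lowest on chromosome 25, at -0.07 with 15.

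The share of lower regions declined with growing distance before the limit of 100000 bp was reached. At an unadjusted p under 0.05, 9.04% of the 1946 regions with a neighbour within 2000 bp were lower after TDCIPP, 3.83% of the 5847 with one between 10000 and 20000 bp, and 2.07% of the 1928 with one between 50000 and 100000 bp. Isolated regions continued at 1.76% (8 of 454, interval 0.764 to 3.44) between 100000 and 150000 bp. The share then stood at 2.82% (4 of 142) up to 200000 bp and 5.45% (6 of 110, interval 2.03 to 11.5) beyond, so the decline did not go on. Higher regions made up 4.73% at the shortest distance, 5.55% between 50000 and 100000 bp, and 5.51%, 4.93% and 8.18% in the 3 isolated classes. The last share rests on 9 of 110 regions (interval 3.81 to 15.0). Level moved with distance, from a median of 6.80 at the shortest to 6.06 between 50000 and 100000 bp and 5.99 just above the limit. With classes weighted to the same levels, lower regions made up 4.60% at the shortest distance, 5.10% between 2000 and 5000 bp and 2.00% between 50000 and 100000 bp. In the isolated classes they made up 1.67%, 2.80% and 5.37%, the last above the share at the shortest distance. Higher regions, weighted in the same way, made up 3.84% at the shortest distance, 5.78% between 20000 and 50000 bp and 5.53% between 50000 and 100000 bp. In the isolated classes they made up 5.54%, 5.13% and 8.90%, each above the share at the shortest distance. The part of level in this course was not tested beyond that weighting.

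**Figure D2:**
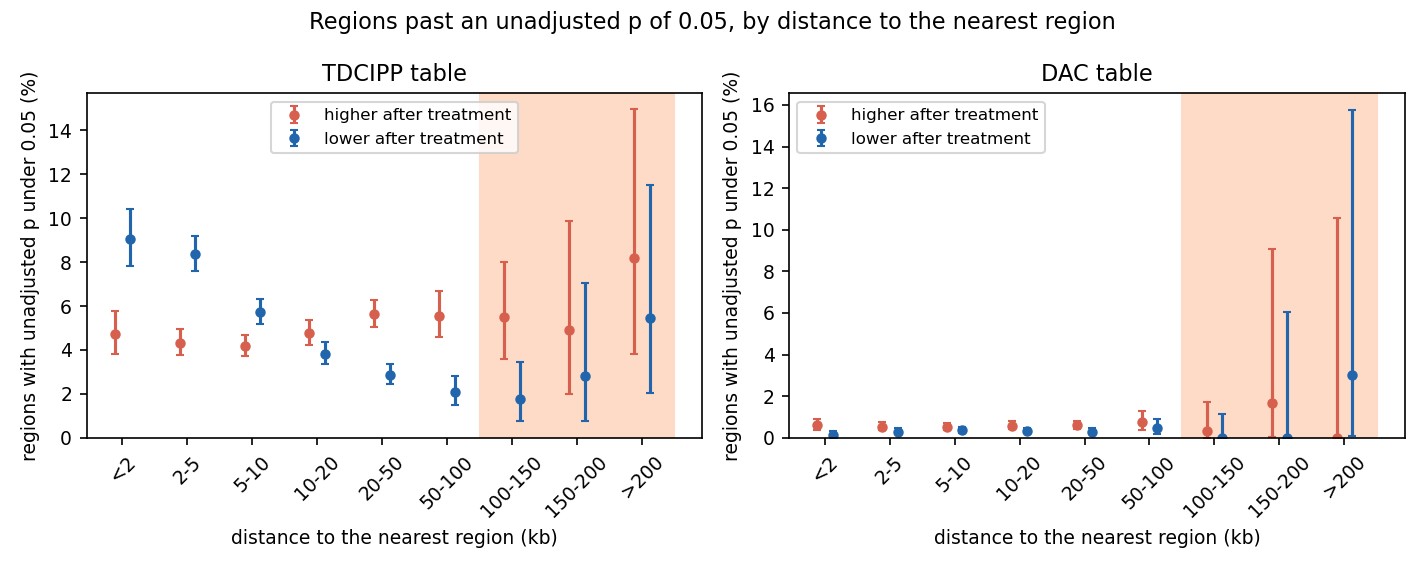
Share of regions of the width range with an unadjusted p under 0.05 (y axis, %) that were higher (red) or lower (blue) after treatment, by distance to the nearest region of the same table (x axis, kb), with 95% Clopper-Pearson intervals; shading marks isolated regions. With TDCIPP the lower regions go from 9.04% to 1.76% at 100 to 150 kb, then to 2.82% and 5.45% in the last 2 classes. The higher regions stay between 4.19% and 8.18%, while all DAC shares lie at 3.03% or below.

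After DAC, no isolated region passed, as no region of the table did. The adjusted p was 1 at all 414 isolated regions in the authors' deposited DiffBind table (0 calls, against 0% of all 45019 regions). With no call in the whole table, this count was fixed and gives no bound on the share of isolated regions that changed. An unadjusted p under 0.05 was found at 3 of 414 (0.725%), beside 1.01% of all regions. Of these 3, 2 were higher and 1 lower, where 0.755% of all regions were higher and 0.251% lower. The median log2 fold was 0.07 (quartiles -0.21 and 0.34) in the authors' deposited table, against 0.09 in the other regions and 0.05 in the other regions at the same levels. A fold above 0 was found in 230 of 414 (55.6%, interval 50.6 to 60.4), against 54.1% at the same levels. The median of isolated regions exceeded that of the other regions on 12 of 24 chromosomes.

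The DAC values with the smallest p are given as not passing. On chromosome 6 at 18917388 to 18918476, DAC libraries had 43.7 reads and DMSO libraries 20.4 (log2 fold 1.11, unadjusted p = 0.0187 in the authors' deposited table). This region was isolated in both tables, and TDCIPP gave it a smaller difference in the same direction (log2 fold 0.35, unadjusted p = 0.0406 in the authors' deposited table). Second among positive folds came chromosome 16 at 11842916 to 11844833, with 31.8 reads after DAC and 15.8 in DMSO (log2 fold 1.01, unadjusted p = 0.0377 in the authors' deposited table). Then 4 more with positive folds, on chromosomes 17, 16, 8 and 18, had larger values after DAC too (log2 folds 0.86 to 1.33, unadjusted p 0.0631 to 0.0899 in the authors' deposited table). Among them, chromosome 17 at 4790560 to 4791289 had the largest fold on 11.4 reads after DAC and 4.53 in DMSO. In the negative direction, chromosome 22 at 19858868 to 19861400 had 7.84 reads after DAC and 16.9 in DMSO (log2 fold -1.11, unadjusted p = 0.0319 in the authors' deposited table). Another 5, on chromosomes 7, 20, 10, 17 and 2, ran from -1.01 to -0.61 in log2 fold (unadjusted p 0.0813 to 0.145 in the authors' deposited table). Of these 6 regions with negative folds, 5 had no counterpart in the TDCIPP table, while of the 6 with positive folds 1 had none. Among all 414 isolated DAC regions, 215 (51.9%) had a counterpart and 199 had none. Their median log2 folds were 0.19 and -0.14 in the authors' deposited table, and their median levels 4.28 and 3.53. The contrast between the 6 and 6 regions was therefore not particular to them.

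In the highest level class, the share of folds above 0 was higher in isolated than in other regions with TDCIPP and lower with DAC. With TDCIPP most lower classes showed the same direction, while with DAC most lower classes showed the reverse. Lower classes of the same direction had smaller gaps. The upper of 10 level classes held 71 isolated regions of the TDCIPP table (level above 7.465), of which 39 (54.9%, interval 42.7 to 66.8) had a fold above 0, against 36.1% of the 6147 other regions of the class. The median level there was 7.92 in isolated regions and 8.23 in the other regions. The share of the other regions was 39.9% when each isolated region was set beside those within 0.05 of its level, and 40.0% when set beside those within 0.1 of its level that were also of like width. In the DAC table the upper class (level above 5.298) held 42 isolated regions, of which 27 (64.3%, interval 48.0 to 78.4) had a fold above 0, against 87.3% of the other regions. The median level there was 5.58 in isolated regions and 5.96 in the other regions. Within 0.05 of the level the share of the other regions was 84.0%, and at like level and width it was 74.2%. Regions of the same libraries are not replicates, and these differences were not tested. Median log2 folds of this class were 0.02 in isolated and -0.06 in other regions after TDCIPP, and 0.22 and 0.31 after DAC, in the authors' deposited tables. In other regions within 0.05 of the level the median log2 folds were -0.04 after TDCIPP and 0.28 after DAC in these tables. At like level and width they were -0.03 and 0.285 (log2, from the authors' deposited tables). In the lowest DAC class, 20 of 43 isolated regions (46.5%, interval 31.2 to 62.3) had a fold above 0, against 31.7%. In the TDCIPP class just below the highest, no such gap was seen, with 45.6% against 47.3%. The TDCIPP class next below had 60.3% against 51.2%, and the one below that 64.3% against 52.0%. Counted from the lowest, TDCIPP class 5 had 53.5% against 55.7%, and in all remaining TDCIPP classes the isolated share was the higher. In the DAC class just below the highest the order was the reverse, with 31 of 41 isolated regions (75.6%) against 71.0%. The DAC class next below had 29 of 41 (70.7%) against 60.9%. The isolated share was lower in DAC class 7, counted from the lowest (57.9% against 58.0%), class 5 (42.9% against 49.7%) and class 3 (43.9% against 44.8%). It was higher in the remaining DAC classes.

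**Figure D3:**
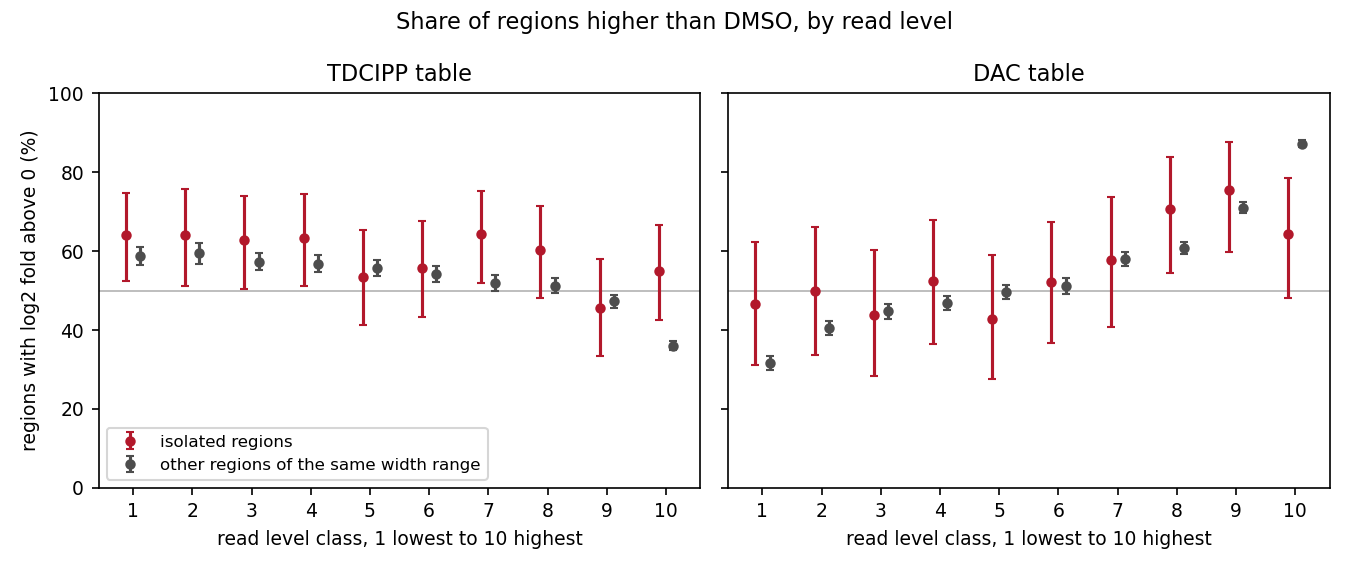
Share of regions with a log2 fold above 0 (y axis, %) in isolated regions (red) and other regions of the same width range (grey) of 10 level classes holding like numbers of isolated regions (x axis), with 95% Clopper-Pearson intervals. In the highest class isolated regions lie at 54.9% against 36.1% with TDCIPP and at 64.3% against 87.3% with DAC. The other regions of that class have higher median levels. At like level and width, not drawn, their shares are 40.0% with TDCIPP and 74.2% with DAC. In the class below it they lie at 45.6% against 47.3% with TDCIPP and at 75.6% against 71.0% with DAC.

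Most isolated regions of the TDCIPP table were also found with DAC, as were most other regions. Of the 706, 479 (67.8%) shared at least 1 base with a region of the DAC table. Of all 35040 regions 71.9% did, of the other regions 73.3%, and of the other regions at the same levels 65.6%. Of the 414 isolated DAC regions, 215 (51.9%) shared a base with a TDCIPP-table region, against 51.7% at the same levels. Those with a counterpart were stronger, with a median level of 6.29 against 5.5 without in the TDCIPP table, and 4.28 against 3.53 in the DAC table. DAC log2 folds differed between them, with medians of 0.19 at the 215 and -0.14 at the 199 without a counterpart in the authors' deposited table. The other regions showed the same split, 0.22 and -0.11. TDCIPP log2 folds had the reverse order, with medians of 0.04 at the 479 and 0.12 without a counterpart in the authors' deposited table. In the other regions these were -0.01 and 0.04. None of these medians was matched in level. The 215 were isolated by distances in the DAC table alone, but were chosen among the 414 for overlapping a TDCIPP-table region. Their folds could also be read in the TDCIPP table. There 131 (60.9%, interval 54.1 to 67.5) had a TDCIPP fold above 0, against 47.1% of the other DAC-table regions with a counterpart. At the same DAC-table levels that share was 49.5%. TDCIPP-table levels were not matched. In that table the share was 58.9% of other regions in the lowest level class and 36.1% in the highest. The TDCIPP table also held 86 of the 215 as isolated. Of the 215, 1 rose and 1 fell at an adjusted p under 0.05 (0.465% each), against 0.293% rises and 0.905% falls at the same DAC-table levels. The rise lay on chromosome 7 at 28826691 to 28827612 (TDCIPP log2 fold 0.59, DiffBind adjusted p = 0.0455 in the authors' deposited table), and the fall is the chromosome 11 region described with the strongest DAC regions. The DAC folds of the 479 isolated TDCIPP regions were above 0 in 71.6%, against 69.7% at the same TDCIPP-table levels, with DAC-table levels not matched.

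The 86 regions isolated in both tables are 12.2% of the isolated TDCIPP regions and 20.8% of the isolated DAC regions. Their median log2 fold was 0.10 after TDCIPP (range -0.36 to 0.61) and 0.21 after DAC (range -0.49 to 1.11) in the authors' deposited tables. Folds were above 0 with both compounds in 33, above 0 with TDCIPP and below 0 with DAC in 24, the other way round in 19 and below 0 with both in 6, and in 4 a fold was 0. Taken singly, 57 of the 86 (66.3%) were above 0 with TDCIPP and 55 (64.0%) with DAC. Over all 35040 TDCIPP-table regions, of any width and level, 50.3% were above 0 with TDCIPP. Of the 25209 among them with a counterpart, 75.6% were above 0 with DAC. Neither share was matched to the levels of the 86, whose medians were 6.245 (TDCIPP table) and 4.25 (DAC table). Other regions of the level classes holding these medians were above 0 in 54.2% with TDCIPP and 58.0% with DAC. Those classes include regions without a counterpart. Across the 86 regions, which are not replicates, the folds had Pearson r = -0.13 and Spearman rho = -0.18. The DMSO levels of the tables, which are normalized separately, had r = 0.68. The folds of the 19495 other TDCIPP-table regions with a counterpart had r = -0.17 and rho = -0.17. None of the 86 passed an adjusted p of 0.05 after TDCIPP, where 1.28% of all regions did. An unadjusted p under 0.05 was found at 3 (3.49%) with TDCIPP and 1 (1.16%) with DAC, beside 9.93% and 1.01% of all regions. The largest TDCIPP fold lay on chromosome 17 at 40417042 to 40417965, with 44.6 reads after TDCIPP and 29.2 in DMSO (log2 fold 0.61, unadjusted p = 0.0363 in the authors' deposited table). Their smallest unadjusted p, 0.0106, belonged to chromosome 18 at 47936325 to 47937795, with 75.6 reads after TDCIPP and 51.3 in DMSO (log2 fold 0.55 in the authors' deposited table). Its DAC log2 fold was -0.23. The strongest of the 86 was a narrow region of 744 bp on chromosome 24 at 6962612 to 6963355, 304394 bp from its nearest neighbour, with 428 reads after TDCIPP and 422 in DMSO, and 97.7 reads after DAC and 75.6 in DMSO. The next 7 by DMSO level, on chromosomes 13, 15, 1, 14, 20, 1 and 13, did not pass either (log2 folds -0.16 to 0.27, unadjusted p of 0.0782 or more in the authors' deposited table).

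**Figure D4:**
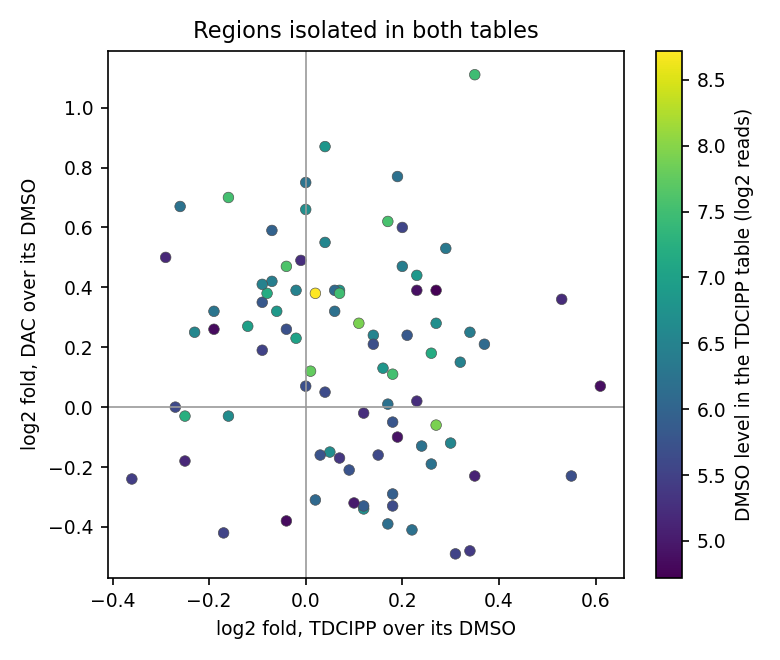
Log2 fold after TDCIPP (x axis) and after DAC (y axis), each over its own DMSO controls, of the 86 regions isolated in both tables, coloured by DMSO level in the TDCIPP table. The quadrant with both folds above 0 holds 33 regions and that with both below 0 holds 6, where 57 were above 0 with TDCIPP and 55 with DAC.

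The most remote region of the TDCIPP table lay on chromosome 14 at 27296395 to 27297797, 535711 bp from its nearest neighbour. It was a strong region, with 194 reads after TDCIPP and 175 in DMSO (log2 fold 0.15, adjusted p = 0.807 in the authors' deposited table). The next 5, on chromosomes 12 (2 regions), 2, 18 and 1, lay 379404 to 476640 bp from any other. Of these, chromosome 18 at 29401949 to 29403879 was as strong, with 209 reads after TDCIPP and 187 in DMSO, while the other 4 had 42.5 reads or fewer in DMSO. On chromosome 12 at 44212195 to 44213483 TDCIPP libraries had 27.7 reads and DMSO libraries 42.5 (log2 fold -0.62, unadjusted p = 0.0445, adjusted p = 1 in the authors' deposited table). All 6 had another region of the DAC table within 100000 bp. With DAC the most remote lay on chromosome 6 at 24817722 to 24818435, 320881 bp from its neighbour, with 5.21 reads after DAC and 8.17 in DMSO. The others lay on chromosomes 11, 6, 10, 13 and 18, with folds on both sides of 0 (log2 -0.24 to 0.52, unadjusted p of 0.406 or more in the authors' deposited table).

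The 6 isolated regions with the highest DMSO level did not pass the test after TDCIPP. The strongest lay on chromosome 11 at 17565197 to 17569016, a region of 3820 bp with 1479 reads after TDCIPP and 1090 in DMSO (log2 fold 0.43, adjusted p = 0.0888 in the authors' deposited table). Its counterpart of 4176 bp had a DMSO level of 11.73 in the DAC table, above the 10.09 of the TDCIPP table, and was lower with DAC, though not passing (log2 fold -0.42, unadjusted p = 0.428 in the authors' deposited table). At the next 5, on chromosomes 20, 23, 19 (2 regions) and 24, the DMSO level was lower in the DAC table, at 6.24 to 7.20, and 8.70 to 9.32 in the TDCIPP table. The tables are normalized separately, and other regions were lower in the DAC table too, with a median DMSO level of 4.15 against 6.41. The TDCIPP folds of these 5 lay close to 0 (log2 -0.10 to 0.06, adjusted p of 0.85 or more in the authors' deposited table). With DAC the strongest lay on chromosome 20 at 2949088 to 2951250, with 239 reads after DAC and 152 in DMSO (log2 fold 0.64, unadjusted p = 0.319 in the authors' deposited table). Next in level, chromosome 11 at 14324051 to 14325538 had 159 reads after DAC and 105 in DMSO. It overlapped a TDCIPP-table region of 3121 bp, not isolated there, that fell after TDCIPP (log2 fold -0.34, DiffBind adjusted p = 0.043 in the authors' deposited table).

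Near the limits of the definition, the isolated regions of the TDCIPP table closest to 100000 bp were the chromosome 11 region with the fold of 1.01, at 100005 bp, and chromosome 10 at 3528834 to 3530202, at 100235 bp (log2 fold -0.02 in the authors' deposited table). Just outside were chromosome 23 at 21278787 to 21279858 (99872 bp, log2 fold -0.11) and chromosome 3 at 4764834 to 4765560 (99714 bp, -0.47) in the authors' deposited table. With DAC both regions just inside lay at 100148 bp, on chromosomes 11 and 16, with folds of 0.35 and 0.18 (log2), and those just outside lay at 99982 bp on chromosome 14 (0.66) and at 99927 bp on chromosome 23 (0.33) in the authors' deposited table. Widths ran from 523 to 3820 bp in the TDCIPP table and from 502 to 3949 bp in the DAC table. Regions of any width that met the distance limit numbered 708 with TDCIPP and 434 with DAC, so the width limits kept out 2 and 20. Both of the TDCIPP table lay on chromosome 15, at 18646059 to 18646555 (497 bp, log2 fold 0.68, adjusted p = 1) and at 15190666 to 15194991 (4326 bp, 0.39, adjusted p = 0.0588) in the authors' deposited table. The wider had 7538 reads after TDCIPP and 5753 in DMSO, above every isolated region of the table.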

How the data were processed

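ATAC-seq libraries of whole zebrafish embryos were processed by the authors with Bowtie2, Picard, MACS2, deepTools and DiffBind on GRCz11, per the submitters' processing notes. Not given in the sources used here are versions, the shift of reads for the transposase, the handling of duplicates and the scaling of libraries. The authors' deposited DiffBind tables, 1 for each compound and normalized separately, give per region a log2 level over all 6 libraries, log2 levels of the treated and DMSO groups, a log2 fold, a p-value and an adjusted p-value, per the file headers. The DAC table heads its treated column with 5AzaC, where the labels say DAC. No other test was run on the regions.

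Here distances between regions, shares, medians and Clopper-Pearson intervals (95%) were computed with Python 3.11.15, numpy 2.4.6, pandas 2.3.3 and scipy 1.17.1, and figures with matplotlib 3.10.9, after the steps were tested on simulated data. Reads are 2 to the power of the log2 level. The other regions were weighted to the isolated ones over 10 level classes, or taken within 0.05 of the level. Levels are compared only within a table unless stated.

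Named were the regions with an adjusted p under 0.05, or with DAC the 6 positive and 6 negative folds of smallest p, the 6 most remote and the 6 with the highest DMSO level of each table, regions just inside and outside the limits, and shared regions of high level or large fold. The members, lists and rules were chosen with earlier results of these data known. The planned printing of sequences and annotations could not be applied, since no genome of this build was used here. Alternatives were other distance, width, level and call limits, isolation over both tables together, a Benjamini-Hochberg adjustment recomputed from the deposited p-values and other weightings.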

Additional observations from a re-analysis of the deposited data

How the results depend on the processing

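The tables give group means only, so a spread between libraries, values without 1 library and other scalings of libraries could not be had. No paired analysis was possible because a value per library was not at hand, and leaving out each replicate in turn was not run for the same reason. The DAC count of calls was 0 under all 13 alternatives. In those that used the deposited adjusted p, every value is 1 and the count could not move. The recomputed adjustment, which could have moved it, also gave 0. The cause of the changes below was not tested. Shares of all regions at the changed call limits are not given here, so those counts are not read as high or low. The TDCIPP count of 5 calls became 17 of 2634 regions at a distance of 50000 bp, 0 of 110 at 200000 bp, 0 of 141 with isolation from the regions of both tables, 1 of 310 at widths of 500 to under 1000 bp, 3 at an adjusted p under 0.01 and 8 under 0.1, and it was 4 to 6 under the other 7. At 200000 bp (110 TDCIPP and 33 DAC regions) the median log2 fold was 0.12 with TDCIPP and 0.14 with DAC, in place of 0.07 each, and the share overlapping the other table was 63.6% and 57.6%, in place of 67.8% and 51.9%. Isolated minus weighted other regions, the median log2 fold there differed by 0.10 and 0.13, in place of 0.05 and 0.02, the overlap by -1.46 and 11.9 percentage points, in place of 2.25 and 0.235, and the share of folds above 0 by 12.5 and 10.2 points, in place of 6.02 and 1.42. With isolation from both tables (141 and 212 regions) the TDCIPP median was 0.12, 0.09 above the weighted other regions, its share of folds above 0 lay 13.6 points above theirs and its overlap was 63.1%, while the DAC overlap was 40.6%, a difference of -9.16 points. At widths of 500 to under 1000 bp the medians were 0.11 with TDCIPP and 0.19 with DAC and the overlaps 56.5% and 58.3%, the DAC one 6.11 points above the weighted other regions. From 1000 to under 4000 bp the medians were 0.03 and 0 and the TDCIPP overlap was 76.8%. With a level minimum the overlaps were 80.3% and 71.0% and the DAC median was 0.19. The DAC median was also 0.19 in regions with a counterpart and -0.03 with folds centred on the median of all regions. Chosen after seeing the data were the restriction to regions with a counterpart, the comparison within 0.05 of level, the alternatives for the share of folds above 0 and the classes of distance. The comparison of the highest level class by itself was not planned either. The TDCIPP median exceeded that of the weighted other regions under all 12 alternatives, by 0.02 to 0.10. With DAC the difference of medians turned to -0.015 with isolation from both tables, and the share of folds above 0 differed by -1.77 points there, -1.34 with a level minimum and -0.0756 at widths of 1000 bp or more.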
